A study of Mus musculus with 4 samples.

Results

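The inducible HSP70 genes Hspa1a and Hspa1b and 8 further heat shock genes, Hspa8, Hspb1, Hsph1, Hspd1, Dnajb1, Hsp90aa1, Hsp90ab1 and Hsf1, were followed in dendritic cells (DCs) sorted from tumour-bearing mice. They were taken by symbol from a count table of 46078 gene rows, and all 10 were found, each in 1 row. Symbols came from the authors' deposited table of their own comparison for 9 of them and from the GRCm38 annotation for Hspb1. The choice was made with earlier results of these libraries known, among them the calls of Hspa1a and Hspa1b in the authors' deposited table. Values of the 10 genes in the contrast between genotypes are therefore given as a description.

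Poly(A) RNA was sequenced in 4 libraries. In 2 of them (Il33flx) the genotype was CD11c-cre-Il33flx/flx, so that cells with an active CD11c promoter can lose Il33, the gene of an IL-1 family cytokine. The other 2 (Ctrl) had the genotype CD11c-cre, which means that both groups carry the Cre transgene. All mice had received EL4-Flt3 tumour cells, derived from a mouse T lymphoma line, 10 days before. Cells came from the spleen together with the mesenteric lymph node and were gated as CD45+, CD64-, CD11b+, MHCII+ and CD103+. CD11c-cre acts in DCs and in some other myeloid cells. Age, sex and strain, and whether a library held 1 animal or a pool, are not given in the sources used here, so the spread between libraries may be partly technical.

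Heat shock proteins are chaperones that keep other proteins folded and return misfolded ones to a folded state. In unstressed cells the transcription factor HSF1 is held inactive by chaperones, and when misfolded proteins occupy those chaperones HSF1 forms trimers, binds repeats of the letters GAA and TTC called heat shock elements, and switches on genes such as Hspa1a, Hspa1b and Dnajb1. Hspa8 and Hsp90ab1 are the constitutive relatives, which most cells make at high levels without stress. In myeloid cells chaperones also serve antigen processing and the folding of innate receptors.

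Hspa1a (ENSMUSG00000091971, chr17:34969190-34972156, minus strand of GRCm38) and Hspa1b (ENSMUSG00000090877, chr17:34956436-34959238, minus strand) lie side by side in the same orientation. RefSeq promoter windows on GRCm38.p6, which run from 250 bases before the start of transcription to 50 bases after it, were found for 6 of the 10 genes. The windows of Hspa1a (chr17:34972107-34972406) and Hspa1b (chr17:34959189-34959488) are shown because these were the 2 genes with the greatest differences. Those of Hspd1 (chr1:55087883-55088182) and Hsph1 (chr5:149636287-149636586) are shown because they hold the longer form of the motif. Hspd1 has 2 windows, and the one shown lies wholly within the annotated gene. All 4 windows shown are on the minus strand and are written 5′ to 3′. Capitals mark matches to GAANNTTC or TTCNNGAA, 2 units of a heat shock element, or to the 3-unit forms GAANNTTCNNGAA and TTCNNGAANNTTC, which contain the 2-unit forms and are each other's reverse complement. The 2-unit forms read the same on both strands.
Hspa1a: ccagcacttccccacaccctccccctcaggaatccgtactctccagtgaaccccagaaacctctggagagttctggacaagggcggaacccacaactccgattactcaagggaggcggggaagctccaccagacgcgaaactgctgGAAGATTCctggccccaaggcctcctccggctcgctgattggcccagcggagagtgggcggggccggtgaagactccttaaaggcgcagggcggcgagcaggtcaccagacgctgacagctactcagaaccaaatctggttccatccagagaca
Hspa1b: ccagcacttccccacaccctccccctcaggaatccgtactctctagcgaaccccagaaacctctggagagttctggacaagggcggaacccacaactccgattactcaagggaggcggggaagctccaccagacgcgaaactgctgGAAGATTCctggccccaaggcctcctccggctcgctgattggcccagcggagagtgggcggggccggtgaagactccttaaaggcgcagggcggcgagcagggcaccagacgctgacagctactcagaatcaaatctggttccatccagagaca
Hspd1: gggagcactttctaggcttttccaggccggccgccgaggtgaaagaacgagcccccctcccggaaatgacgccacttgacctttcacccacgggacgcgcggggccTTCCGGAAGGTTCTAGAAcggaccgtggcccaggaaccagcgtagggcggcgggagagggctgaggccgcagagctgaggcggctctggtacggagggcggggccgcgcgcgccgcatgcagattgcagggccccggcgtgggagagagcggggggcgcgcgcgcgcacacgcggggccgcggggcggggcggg
Hsph1: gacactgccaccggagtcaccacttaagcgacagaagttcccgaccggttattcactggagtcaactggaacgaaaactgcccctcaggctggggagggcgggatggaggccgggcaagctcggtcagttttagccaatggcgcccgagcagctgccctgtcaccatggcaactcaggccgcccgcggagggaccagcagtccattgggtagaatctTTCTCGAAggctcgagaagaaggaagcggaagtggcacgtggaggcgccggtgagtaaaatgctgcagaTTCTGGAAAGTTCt

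The windows of Hspa1a and Hspa1b were identical at 98.7% of 300 positions. Counted from 1 at the 5′ end of the window, with the base of Hspa1a first, the differences were C44T, T47C, T249G and C276T. Neither copy differed within the single match, GAAGATTC at positions 147 to 154. The Hspd1 window shown had 2 overlapping 3-unit matches and the Hsph1 window had 1. The other Hspd1 window (chr1:55088194-55088493), at the annotated start of the gene, had 0 matches. Hspb1 had 2 matches to GAANNTTC in its window, at positions 134 to 141 and 154 to 161, and neither window of Dnajb1 had a match. At least one 2-unit form stood in 15.1% and at least one 3-unit form in 0.603% of 32851 windows, so a 2-unit match alone is common. A match shows only these letters, and degenerate heat shock elements were not searched.

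Reads of the 2 copies are hard to tell apart. Their transcripts were identical at 93.9% of 2723 aligned bases, with a longest identical run of 638 bases. Of all 100-base stretches, 47.1% of those in Hspa1a and 49.9% of those in Hspa1b occurred unchanged in the other copy, and at 50 bases the shares were 58.8% and 62.3%. In addition, 564 of the 2967 exon bases of Hspa1a are covered by exons of Gm20481 on the opposite strand, which had 0 counts in every library. The read length and the strand setting are not given in the sources used here. Values of the single copies are therefore uncertain, and their sum is given beside them. Reads that match both copies may be missing from the sum as well.

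Libraries held 67707682 to 81217828 gene counts, and 21.9% to 23.1% of all counted reads did not align uniquely. Genes of the sort gate were present throughout, with Itgam (CD11b) at 97.8 to 128 CPM (reads of a gene relative to its library's total), Itgae (CD103) at 56.8 to 116 CPM and H2-Ab1, an MHC class II chain, at 33060 CPM or more. Flt3, a receptor of conventional DCs, had 678 to 894 CPM. Xcr1, a marker of type 1 conventional DCs, which as a rule lack CD11b, had 506 to 841 CPM, and Sirpa, a marker of type 2, had 258 to 319 CPM. The gene of the gated-out CD64, Fcgr1, stood at 3.66 to 5.50 CPM. The targeted Il33 had 4 and 0 counts in the Il33flx libraries and 4 and 8 in the Ctrl libraries, too few to check the genotypes. Ctrl 1 stood apart from the other libraries on the first principal component, at -70.1 against 18.8 to 26.2. Values without it stand beside those of the heat shock genes and gene lists that it moved.

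Hspa1a, an inducible cytosolic HSP70, had 60.4 and 169 CPM in Il33flx 1 and 2, and 23.1 and 40.1 CPM in Ctrl 1 and 2. Hspa1b, the second inducible copy, had 101 and 268 CPM in the Il33flx libraries and 29.9 and 60.8 CPM in the Ctrl libraries. Both Il33flx libraries thus lay above both Ctrl libraries for either copy, with Il33flx 2 far above the rest and Ctrl 1 lowest. These and all later CPM are scaled by TMM factors. The sum of the copies was 162 and 437 CPM in the Il33flx libraries, against 53.0 and 101 CPM in the Ctrl libraries. That is a mean of 299 ± 195 CPM in Il33flx and 76.9 ± 33.8 CPM in Ctrl (SD, n = 2 each). The fitted log2 fold change of the sum was 1.96 ± 0.51 (SE), a 3.89-fold higher mean, and that of the single copies was 1.86 ± 0.51 for Hspa1a and 2.02 ± 0.52 for Hspa1b. The spread within a genotype was wide as well. Il33flx 2 had 2.70 times the summed level of Il33flx 1, Ctrl 2 had 1.90 times that of Ctrl 1, and the nearest libraries of the 2 genotypes, Il33flx 1 and Ctrl 2, stood at 162 and 101 CPM.

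**Figure D1:**
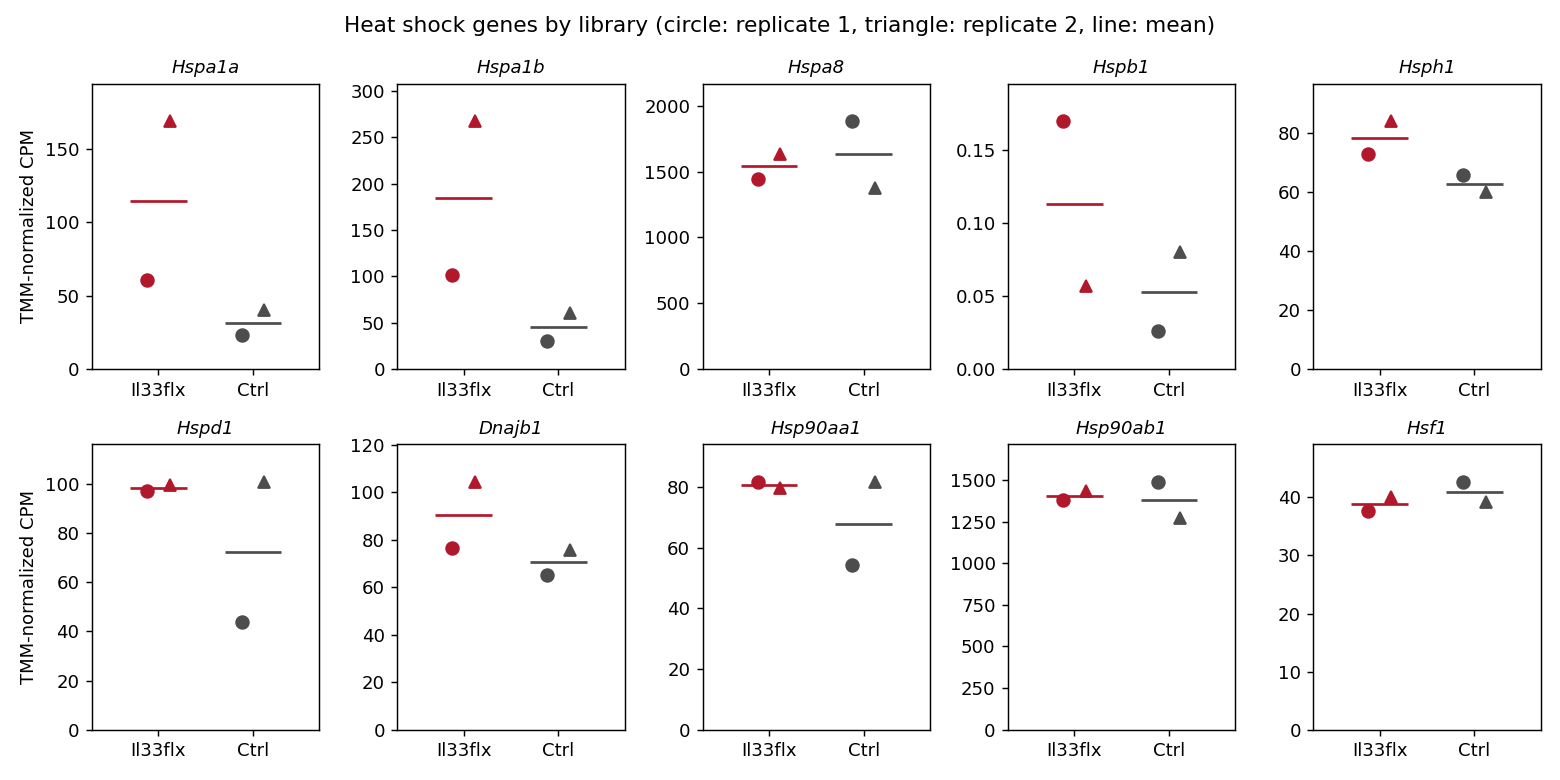
TMM-normalized CPM of each of the 10 genes on the y axis, from 0, by genotype on the x axis, with replicate 1 as a circle, replicate 2 as a triangle and the mean of 2 libraries as a line. Hspa1a and Hspa1b reach 169 and 268 CPM in Il33flx 2, whereas Hspa8 and Hsp90ab1 stay between 1270 and 1887 CPM in all libraries.

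In the authors' deposited table, Hspa1b had a log2 fold change of 2.00 (adjusted p = 0.0164) and Hspa1a one of 1.84 (adjusted p = 0.0418), both as Il33flx over Ctrl and with a standard error of 0.49 and 0.48. The authors' deposited table called 31 of 15001 genes higher in Il33flx, 0.207%, and called none of the 7 other listed heat shock genes. These calls helped to choose the genes and support nothing further.

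The share of the pair's counts that fell to Hspa1b was 62.6% in Il33flx 1 (95% exact binomial interval 61.7% to 63.5%) and 61.2% in Il33flx 2 (60.7% to 61.8%). It was 56.3% in Ctrl 1 (54.8% to 57.9%) and 60.3% in Ctrl 2 (59.2% to 61.4%). The intervals of Il33flx 1 and Il33flx 2 touched, as did those of Il33flx 2 and Ctrl 2, and Ctrl 1 lay below the rest. The interval of Il33flx 1 lay above that of Ctrl 2. These intervals cover counting error only. The ratio of Hspa1b to Hspa1a ranged from 1.29 in Ctrl 1 to 1.67 in Il33flx 1, while the sum of the copies varied more widely. Reads that the copies share, and bases that Hspa1a shares with Gm20481, limit these values.

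**Figure D2:**
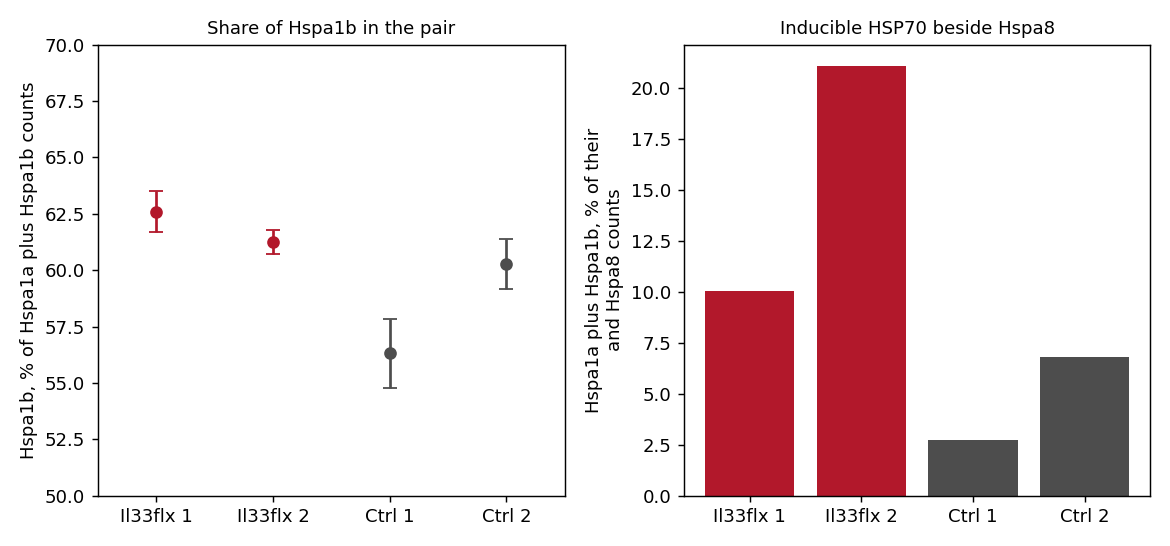
The left panel gives the percentage of Hspa1a plus Hspa1b counts that belonged to Hspa1b in each library, with 95% exact binomial intervals on an axis from 50% to 70%, and the right panel gives the pair as a percentage of its own and the Hspa8 counts. Ctrl 1 is lowest in both, at 56.3% and 2.73%, and Il33flx 2 is highest on the right at 21.1%.

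Hspa8 (ENSMUSG00000015656, chr9:40800984-40810087), the constitutive cytosolic HSP70, did not follow the inducible copies. It had 1447 and 1635 CPM in the Il33flx libraries and 1887 and 1379 CPM in the Ctrl libraries, with Ctrl 1 highest and Ctrl 2 lowest, so the groups overlapped. Its log2 fold change was -0.083 ± 0.21 (SE). Counts of Hspa1a plus Hspa1b made up 10.0% and 21.1% of the counts of the 3 HSP70 genes in the Il33flx libraries, against 2.73% and 6.82% in the Ctrl libraries. Reads shared by Hspa1a and Hspa1b may be missing from both, so these shares may be too low. Over all 4 libraries Hspa8 varied 1.37-fold and the sum of the copies 8.25-fold.

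Dnajb1 (ENSMUSG00000005483, chr8:83608193-83612653), an HSP40 that delivers clients to HSP70 and starts its ATPase cycle, had 76.6 and 105 CPM in the Il33flx libraries and 65.1 and 76.0 CPM in the Ctrl libraries. The groups did not overlap, but Il33flx 1 and Ctrl 2 were almost level, and the log2 fold change was 0.36 ± 0.22 (SE). Hsph1 (ENSMUSG00000029657, chr5:149614287-149636376), the HSP110 that exchanges the nucleotide of HSP70, had 72.8 and 84.1 CPM in the Il33flx libraries and 65.7 and 60.0 CPM in the Ctrl libraries. Here too the groups lay apart, with Il33flx 2 highest, at a log2 fold change of 0.32 ± 0.19 (SE).

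The cytosolic HSP90 genes differed little between genotypes. Hsp90ab1 (ENSMUSG00000023944, chr17:45567775-45573271), the constitutive HSP90, had 1379 and 1432 CPM in the Il33flx libraries and 1491 and 1270 CPM in the Ctrl libraries, which bracketed the Il33flx values. Its log2 fold change was 0.026 ± 0.18 (SE), 0.15 without Ctrl 1 and -0.091 without Ctrl 2. Hsp90aa1 (ENSMUSG00000021270, chr12:110690605-110702728), the stress-inducible form, had 81.8 and 79.7 CPM in the Il33flx libraries and 54.2 and 81.6 CPM in the Ctrl libraries. Ctrl 1 alone was low, and without it the log2 fold change of Hsp90aa1 went to -0.007, against 0.25 ± 0.24 (SE) with all libraries and 0.57 without Ctrl 2.

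Hspd1 (ENSMUSG00000025980, chr1:55077835-55088243), the mitochondrial chaperonin HSP60, showed the same low value in Ctrl 1. It had 97.1 and 99.6 CPM in the Il33flx libraries and 44.0 and 101 CPM in the Ctrl libraries, so 3 libraries were level and Ctrl 1 lay below them. The log2 fold change was 0.44 ± 0.37 (SE), -0.030 without Ctrl 1 and 1.16 without Ctrl 2. Hspe1, the co-chaperonin HSP10, lies head to head with Hspd1 on the opposite strand and overlaps 112 of its exon bases. It had 27.5 and 25.7 CPM in the Il33flx libraries and 8.60 and 27.5 CPM in the Ctrl libraries, again low in Ctrl 1 only. With no stated strand setting, reads in the shared bases cannot be assigned.

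Hspb1 (ENSMUSG00000004951, chr5:135887919-135889563), the small heat shock protein HSP27 in humans, was near the detection limit. It had 12 and 4 counts in the Il33flx libraries and 2 and 6 counts in the Ctrl libraries, did not pass the low-count filter, and is given with no fold change. The groups overlapped. For scale, 3 counts, the upper bound for a gene with no count, equal 0.0369 to 0.0443 CPM before TMM scaling.

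Hsf1 itself (ENSMUSG00000022556, chr15:76477422-76501913) was the steadiest of the 10 genes in these libraries. Its level was 37.7 and 40.1 CPM in the Il33flx libraries and 42.7 and 39.2 CPM in the Ctrl libraries, a 1.13-fold range over all 4 with overlapping groups. The log2 fold change was -0.075 ± 0.19 (SE), and it was -0.14 to -0.0047 with 1 library left out. HSF1 is controlled largely at the protein level, which RNA counts do not measure.

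Per kilobase of exon, the levels of the 10 genes fell into wide steps. Averaged over the 4 libraries, Hsp90ab1 had 464 CPM per kb and Hspa8 369 CPM per kb, and Hsp90ab1 was the higher in each library. Below them came a group in which neighbours were not separated beyond the spread of libraries, namely Hspa1b at 41.0, Hspd1 at 32.3, Dnajb1 at 25.1, Hspa1a at 24.7 and Hsp90aa1 at 18.9 CPM per kb. Hsph1 at 9.72, Hsf1 at 5.63 and Hspb1 at 0.0806 CPM per kb closed the order. This order of means did not hold in each library. Hspa1b stood above Hspd1 only in Il33flx 2, at 95.5 against 37.7 CPM per kb. In Ctrl 1, Hspa1a at 7.80 CPM per kb fell below Hsph1 at 9.04 CPM per kb. Lengths are the union of annotated exons, which understates genes with many long isoforms, and reads shared between Hspa1a and Hspa1b may be missing from both. Together the 10 genes took 0.350% and 0.396% of gene counts in the Il33flx libraries and 0.350% and 0.311% in the Ctrl libraries. Hspa8 and Hsp90ab1 supplied 78.4% to 91.2% of those counts.

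Il33flx was compared with Ctrl over all genes with edgeR (quasi-likelihood F test), with Benjamini-Hochberg adjustment over 14995 tested genes. The test called 1 gene, 0.00667% of those tested, and 0 of the 9 heat shock genes that passed the filter. Of these 9 genes, 7 had a positive log2 fold change and 2 a negative one. Their median was 0.32, beside 0.014 over all genes tested. The 2 negative values, those of Hspa8 and Hsf1, went to 3.1e-05 and 0.0039 with library size as the only scaling, which moved the median of all genes to 0.091 as well. Both Il33flx libraries lay above both Ctrl libraries for 4 of the 9, Hspa1a, Hspa1b, Hsph1 and Dnajb1, and 0 of the 9 lay wholly below. Over all genes tested, 15.4% lay wholly above and 14.9% wholly below. Since Hspa1a and Hspa1b were picked on this contrast, nothing is read from these counts. Without Ctrl 1, 6 of the 9 lay wholly above, where 30.6% of all genes did.

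**Figure D3:**
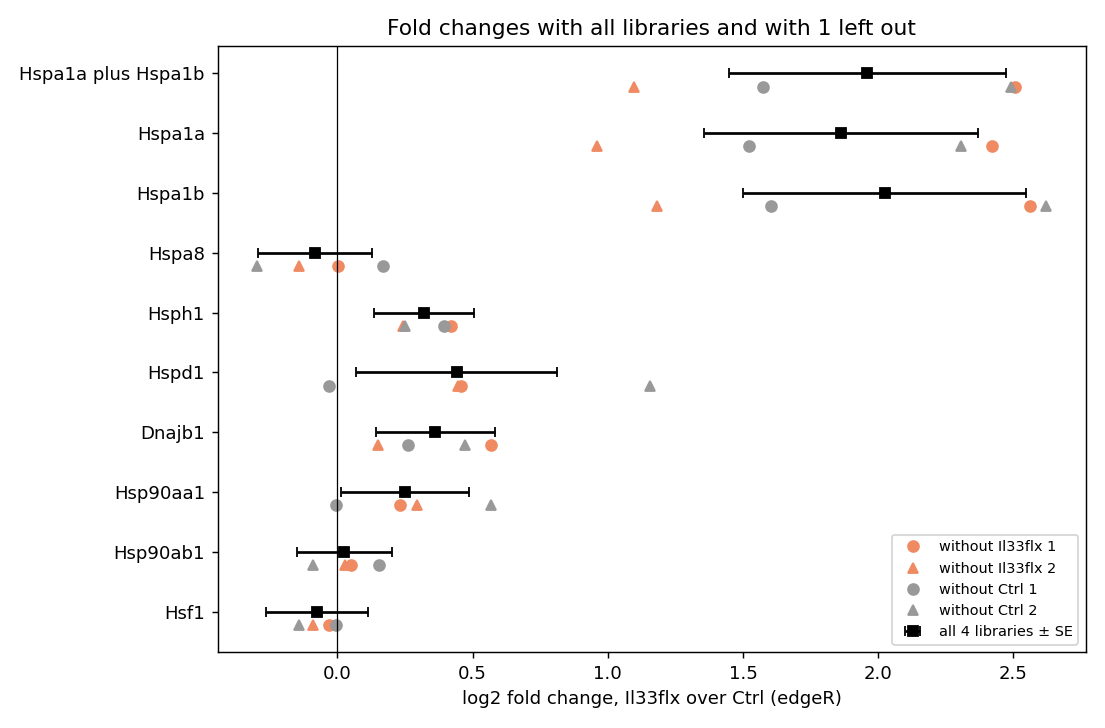
The x axis gives the edgeR log2 fold change of Il33flx over Ctrl for the sum of the copies and for each tested gene, as squares with standard errors for all 4 libraries, and as circles and triangles with 1 library left out. The sum is 1.96 with all libraries and 1.10 without Il33flx 2, while Hspd1 and Hsp90aa1 sit near 0 without Ctrl 1.

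The size of the difference in the inducible pair depended on Il33flx 2. Without that library the log2 fold change of the sum was 1.10 ± 0.42 (SE), and without Il33flx 1 it was 2.51 ± 0.39 (SE). Leaving out Ctrl 1 gave 1.57 ± 0.41 (SE) and leaving out Ctrl 2 gave 2.49 ± 0.70 (SE). The positive sign of all 4 values follows from groups that lay apart, and adds nothing to that. A fit with a lone library in one genotype assumes that it varies like the libraries of the other. Among the remaining genes, Hsph1 and Dnajb1 had 0.24 to 0.42 and 0.15 to 0.57 in these 4 fits. Their groups lay apart as well, so the positive sign again adds nothing. The log2 fold change of Hspa8 was 0.17 without Ctrl 1, 0.0004 without Il33flx 1, and negative in the other 2 fits.

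Other genes of the chaperone network were read from 7 lists, which together named 89 genes beyond the 10 and had 78 tested. The edgeR test called 0 of the 78 (adjusted p = 0.995 or higher), 1 of the 78 had an unadjusted p under 0.05, and DESeq2 called 0 of the 84 it tested. Of all genes tested by edgeR, 0.00667% were called and 3.26% had an unadjusted p under 0.05. DESeq2 called 0.258% of the genes it tested. The 78 had a median log2 fold change of 0.071. Both Il33flx libraries lay above both Ctrl libraries for 10 of them and below for 6, smaller shares than the 15.4% and 14.9% of all genes tested. The highest single log2 fold change among them was 0.87, for the lens crystallin gene Cryaa, with 40 and 6 counts in the Il33flx libraries and 18 and 9 counts in the Ctrl libraries.

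Of the other genes that HSF1 is known to activate, 0 of 15 tested were called, 12 had a positive log2 fold change and 3 a negative one, and their median was 0.21. Bag3, a nucleotide exchange factor and co-chaperone of HSP70 in autophagy, had 6.93 and 4.83 CPM in the Il33flx libraries and 3.24 and 3.91 CPM in the Ctrl libraries (log2 fold change 0.72 ± 0.32 SE, adjusted p = 0.995, edgeR). Dnaja1, an HSP40, had 94.2 and 82.8 CPM in the Il33flx libraries and 45.3 and 79.6 CPM in the Ctrl libraries (0.50 ± 0.29 SE, adjusted p = 0.995, edgeR). Cryab, a small heat shock protein, had the opposite sign, with 1.29 and 0.664 CPM in the Il33flx libraries and 3.79 and 1.26 CPM in the Ctrl libraries (-1.37 ± 0.63 SE, adjusted p = 0.995, edgeR). The list's median was 0.084 without Ctrl 1 and 0.80 without Ctrl 2.

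Among HSP70 relatives and exchange factors 0 of 17 tested genes were called, 8 were positive and 9 negative, and the median log2 fold change was -0.0031, or 0.18 without Ctrl 2. Hyou1, the HSP110 of the endoplasmic reticulum, had 156 and 129 CPM in the Il33flx libraries and 172 and 163 CPM in the Ctrl libraries (-0.23 ± 0.18 SE, adjusted p = 0.995, edgeR). Bag2, an inhibitor of the ubiquitin ligase CHIP, overlapped between genotypes at 9.74 ± 0.97 CPM in Il33flx and 8.38 ± 1.97 CPM in Ctrl (SD, n = 2 each). Among J-domain proteins, partners that drive the HSP70 cycle, 0 of 23 were called, 17 were positive and 6 negative, and the median was 0.16. That median was 0.036 without Ctrl 1 and 0.42 without Ctrl 2. Dnajb5 was lower in both Il33flx libraries, at 9.72 and 7.17 CPM against 14.1 and 12.2 CPM in the Ctrl libraries (-0.64 ± 0.27 SE, adjusted p = 0.995, edgeR). Dnajc8 averaged 134 ± 29.0 CPM in Il33flx and 97.3 ± 16.4 CPM in Ctrl, and Dnajc1 25.6 ± 2.59 CPM in Il33flx and 19.1 ± 3.56 CPM in Ctrl (SD, n = 2 each), with groups apart in both.

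Among HSP90 relatives and co-chaperones 0 of 17 tested genes were called, with a median of 0.12, which was -0.019 without Ctrl 2. The single gene of the 78 with an unadjusted p under 0.05 was Fkbp5, a co-chaperone of steroid receptors. It had 50.6 and 46.3 CPM in the Il33flx libraries and 75.4 and 92.3 CPM in the Ctrl libraries (-0.79 ± 0.20 SE, unadjusted p = 0.00585, adjusted p = 0.995, edgeR). Stip1, which links HSP70 to HSP90, had 210 ± 7.64 CPM in Il33flx and 182 ± 21.4 CPM in Ctrl, and Ppid, a cyclophilin co-chaperone, 15.3 ± 2.00 CPM in Il33flx and 10.3 ± 5.84 CPM in Ctrl (SD, n = 2 each). The groups lay apart for Stip1. They overlapped for Ppid, with 13.8 CPM in Il33flx 2 and 14.5 CPM in Ctrl 2, while Ctrl 1 was low at 6.22 CPM. Among the chaperonins 0 of 10 were called and 0 had groups that lay apart. Their median was 0.16, but 0.021 without Ctrl 1 and 0.35 without Ctrl 2. Cct4 and Tcp1, subunits of the cytosolic chaperonin, averaged 286 ± 3.60 and 307 ± 17.1 CPM in Il33flx and 235 ± 74.4 and 268 ± 45.7 CPM in Ctrl (SD, n = 2 each).

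Small heat shock proteins were scarce, with 5 of 9 tested and 0 called at a median of 0.20. Without Il33flx 1 that median was -1.05. Hspb2 averaged 0.120 ± 0.0303 CPM in Il33flx and 0.301 ± 0.219 CPM in Ctrl, and Hspb11 3.58 ± 0.72 CPM in Il33flx and 2.86 ± 0.51 CPM in Ctrl (SD, n = 2 each). The groups lay apart for Hspb2 and overlapped for Hspb11. Of the heat shock factors other than Hsf1, only Hsf2 was tested. It had 1.36 ± 0.0269 CPM in Il33flx and 1.41 ± 0.49 CPM in Ctrl, while Hsbp1, whose product binds HSF1 trimers, had 53.4 ± 1.59 CPM in Il33flx and 51.5 ± 6.13 CPM in Ctrl (SD, n = 2 each). Neither was called.

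**Figure D4:**
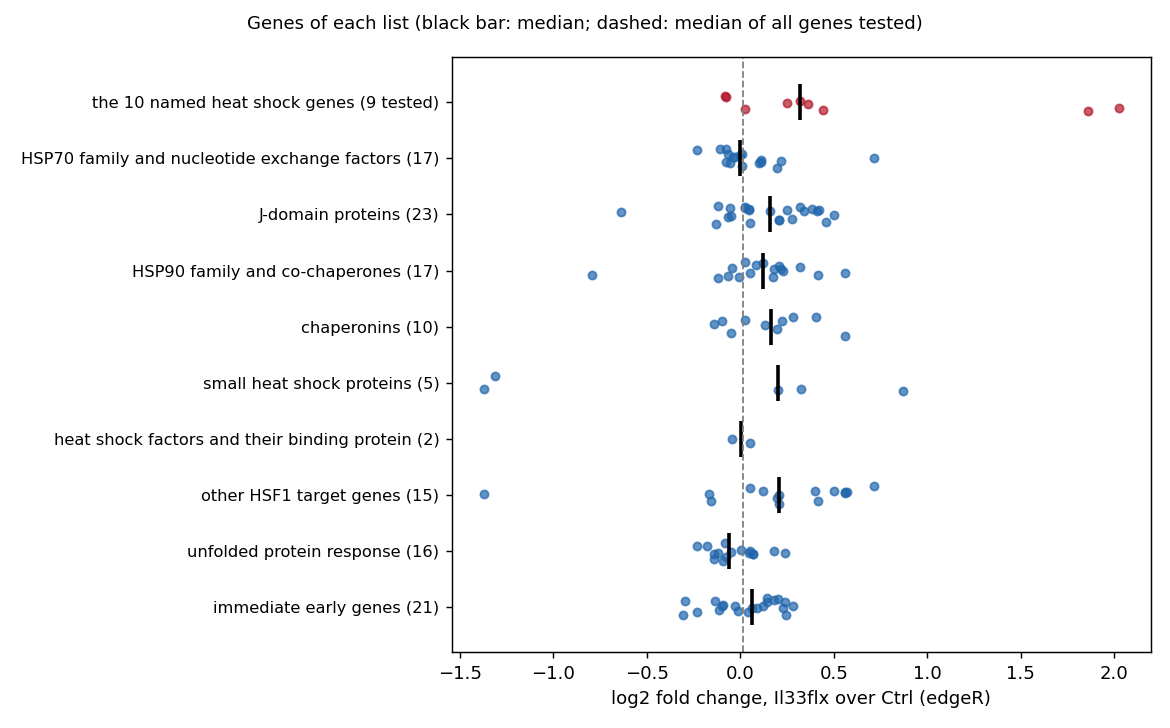
Each point is the edgeR log2 fold change of Il33flx over Ctrl (x axis) of 1 tested gene, in rows by list, with the number tested in brackets, the list's median as a black bar and the median of all tested genes as a dashed line. Hspa1a and Hspa1b lie at 1.86 and 2.02, and all genes of the other lists lie between -1.37 and 0.87.

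A pair of related stress programmes was read in the same libraries. Of 16 genes of the unfolded protein response, the counterpart of the heat shock response for the endoplasmic reticulum, 0 were called by edgeR. Over all genes tested the share called was 0.00667%. Both Il33flx libraries lay below both Ctrl libraries for 4 of the 16 and above for 0, where 14.9% and 15.4% of all genes did. The median log2 fold change was -0.062, with -0.10 to -0.0079 when 1 library was left out. Hspa5, the HSP70 of that compartment, had 3131 and 3153 CPM in the Il33flx libraries and 3434 and 3189 CPM in the Ctrl libraries (-0.076 ± 0.17 SE, adjusted p = 0.995, edgeR). Manf, a secreted factor of that response, had 73.6 ± 3.80 CPM in Il33flx and 62.2 ± 16.6 CPM in Ctrl, and Xbp1, one of its transcription factors, had 292 ± 6.93 CPM in Il33flx and 322 ± 26.6 CPM in Ctrl (SD, n = 2 each). The groups overlapped for Manf, with Ctrl 1 low at 50.5 CPM, and lay apart for Xbp1. Of 21 immediate early genes, which respond within minutes to many stimuli including tissue dissociation, 0 were called and the median was 0.066. Their median was 0.16 without Il33flx 1 and -0.068 without Il33flx 2. For 3 of the 21 both Il33flx libraries lay above both Ctrl libraries, and for 1 both lay below. Ier2 had 208 and 250 CPM and Egr1 354 and 396 CPM in the Il33flx libraries, against 190 and 199 CPM and 309 and 342 CPM in the Ctrl libraries. Socs3, an inhibitor of cytokine signalling, had 31.9 ± 3.46 CPM in Il33flx and 39.4 ± 1.55 CPM in Ctrl (SD, n = 2 each). None of these 3 was called (adjusted p = 0.995 for each, edgeR).

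Markers of the sorted cells and of other cell types also differed between the libraries. Of 10 conventional DC markers, 3 were lower in both Il33flx libraries and 0 higher, where 14.9% of all genes tested lay wholly below and 15.4% wholly above. Itgax, the gene of CD11c, whose promoter drives the Cre, had 359 and 407 CPM in the Il33flx libraries and 647 and 517 CPM in the Ctrl libraries. The others were Irf8, a transcription factor of type 1 conventional DCs, with 3346 and 3819 CPM in the Il33flx libraries and 4817 and 3946 CPM in the Ctrl libraries, and Zbtb46, with 353 and 348 CPM in the Il33flx libraries and 447 and 378 CPM in the Ctrl libraries. None of the 3 was called (adjusted p = 0.995 for each, edgeR). All 7 B cell markers were higher in both Il33flx libraries, with a summed level of 99.3 and 81.4 CPM against 47.0 and 49.2 CPM in the Ctrl libraries. Of 9 erythroid markers 6 lay wholly above, with sums of 59.8 and 31.6 CPM in the Il33flx libraries and 34.4 and 17.5 CPM in the Ctrl libraries, and Slc4a1 alone was at 0 in a library. Of 9 neutrophil markers 5 lay wholly above, with sums of 624 and 441 CPM in the Il33flx libraries and 357 and 323 CPM in the Ctrl libraries. For these 3 lists the sum was higher in Il33flx 1 than in Il33flx 2. Of 8 T cell markers 5 lay wholly below, with sums of 122 and 90.0 CPM in the Il33flx libraries and 154 and 108 CPM in the Ctrl libraries. The 6 mature DC markers summed to 883 and 807 CPM in the Il33flx libraries and to 1859 and 859 CPM in the Ctrl libraries, and 1 lay wholly below. The 8 macrophage markers summed to 542 and 517 CPM in the Il33flx libraries and 580 and 471 CPM in the Ctrl libraries, with overlap throughout. Sums of the erythroid, T cell and mature DC markers overlapped between genotypes. No marker of any of these lists was called (adjusted p = 0.551 or higher, edgeR). The part of any of these cells in the heat shock values was not tested. In sorted bulk cells, fewer cells of a type and less RNA per cell cannot be told apart.

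The profile of Hspa1a plus Hspa1b over the 4 libraries was compared with 8965 named protein-coding genes of at least 5 CPM on average. Likeness was the root mean square difference between log2 CPM profiles, each centred on its own mean, so that 0 is an identical profile. Hspa1a and Hspa1b differed from each other by 0.14. The nearest other gene was Tmem242 at 0.42, with 50.6 and 62.9 CPM in the Il33flx libraries and 11.0 and 26.5 CPM in the Ctrl libraries. Rad21 followed at 0.53, Cenpe at 0.55, Adat2 at 0.56 and Fam92a at 0.57, and none of the 5 was called (adjusted p = 0.995 for each, edgeR). The other tested heat shock genes stood at 0.82 for Hspd1 and at 0.87 for Dnajb1 up to 1.17 for Hspa8, and none was among the nearest. The measure also counts the size of differences, so a gene that follows the pair over a small range scores as distant. Of these genes, only Dnajb1 ranked the 4 libraries in the same order as the pair.

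**Figure D5:**
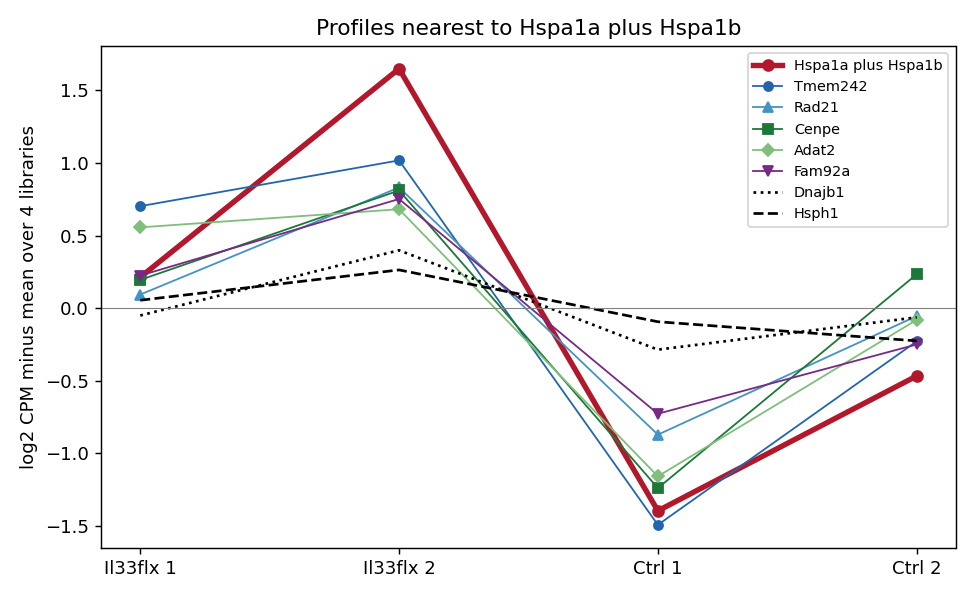
The y axis gives log2 CPM minus the gene's mean over the 4 libraries named on the x axis, for Hspa1a plus Hspa1b in bold, the 5 genes with the nearest profiles, and Dnajb1 and Hsph1 in black. Each of the 5 is highest in Il33flx 2 and lowest in Ctrl 1, like the pair, but spans a smaller range, and Tmem242 lies nearest at 0.42.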

How the data were processed

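The deposited counts are whole-number reads per gene, not normalized by the authors. The submitters' processing notes name STAR, HTSeq, DESeq2 and Trimmomatic 0.39 and the build GRCm38; other versions, strand setting and read length are not given in the sources used here. The 5 HTSeq summary rows stayed out of all totals. The authors' deposited table lists 15001 genes with signal columns (counts over 1 size factor per library, checked), log2 fold changes, a score (Wald statistic) and p-values.

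Il33flx was compared with Ctrl by edgeR 4.0.16 (R 4.3.3; filterByExpr, TMM, no covariate), called at adjusted p below 0.05. SE is the log2 fold change over the root of F. The sum of Hspa1a and Hspa1b replaced both rows in a second fit. With 2 libraries against 2, a permutation test of 1 value cannot go below 0.333, so none was run.

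Genes and lists were chosen with earlier results of these data known. The text names the 10 genes, up to 3 genes of smallest p per list, 5 nearest profiles, and, after their values were seen, Hspa5, Cryaa and single markers. Alternatives were 2 normalizations, 2 filters, DESeq2 1.42.0, limma 3.58.1 voom, the replicate number as a block, and each library left out. GENCODE M21 supplied coordinates and lengths.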

Additional observations from a re-analysis of the deposited data

How the results depend on the processing

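Beside 1 gene called by edgeR over the whole table, DESeq2 called 49, edgeR with a block for the replicate number called 33, and edgeR with library size alone, edgeR with no filter and limma-voom called 0 each. With 1 library left out the count was 0 to 36. The cause was not tested. The log2 fold change of Hspa1a plus Hspa1b was 1.96 with all libraries and 1.10 to 2.51 with 1 left out. It was 1.86 to 2.02 under the other alternatives, the block included (1.86). Of the 10 genes, edgeR called 0 with all libraries. Hspa1a and Hspa1b were both called by DESeq2, which called 0.153% of 19001 genes higher. The fit with the block called both as well, and called 19 of 14995 genes higher. They were not called under the other alternatives that kept all libraries. The labels do not say that equal replicate numbers mark a shared animal or day, and the deviations of same-numbered libraries correlated at only -0.032 across genes, so the block rests on the number alone. Of 99 values of single genes under alternatives, 93 moved by less than the spread between replicates. Most alternatives refit the same 4 libraries, and this spread was wide, with an SD of 0.87 for Hspa1b and 0.60 for Hspd1 in log2 CPM. The change of Hspd1 from 0.44 to -0.030 without Ctrl 1 thus counted as small. Of 99 list medians, 92 moved little by the same measure and 7 moved more. Of the 89 other genes on the 7 chaperone lists, 0 were called under the alternatives that kept all libraries. These tested 73 to 84 of the 89.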
